A study of Mus musculus with 9 samples.

Results

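The proteasome genes of mouse embryonic stem cells were examined in libraries labelled as double knockouts of KLF2 and KLF4 (DKO) and in wild-type libraries (WT). The members were chosen by gene symbol: they are the protein-coding rows whose symbol starts with Psma, Psmb, Psmc, Psmd, Psme, Psmf or Psmg followed by a digit. This gave 50 of the 52550 rows of the count table. The symbol rule uses no measured value, but the gene set was put forward with earlier results of this same comparison known, so counts and medians over the set are descriptions. One member, Psmc3ip, matches the symbol pattern but is a meiotic recombination factor and no proteasome subunit. The study compared 5 libraries of DKO cells with 4 of WT cells, all from V6.5, a hybrid mouse embryonic stem cell line. Both groups grew in Knockout DMEM with 15% serum and antibiotics, and with LIF plus inhibitors of GSK and MEK, which hold the cells in naive pluripotency. Libraries were made from 600 ng of total RNA with a kit that reads the 3' ends of polyadenylated transcripts. Neither the number of DKO clones nor separate cultures are stated, so a p-value reflects no more than the scatter among these libraries, part of which may be technical.

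The proteasome degrades proteins tagged with ubiquitin. Its 20S core is a barrel with outer rings of alpha subunits (Psma genes) and inner rings of beta subunits (Psmb genes), of which Psmb5, Psmb6 and Psmb7 carry the catalytic sites. The 19S regulatory particle caps the core: its base holds the ATPases (Psmc genes) that unfold substrates, and its lid removes ubiquitin chains. Other activators (Psme genes) can take the place of the cap, immunosubunits can replace the catalytic ones, and dedicated chaperones build both parts. Subunit genes respond together to the transcription factor Nfe2l1 when proteolysis is short, through antioxidant response elements in their promoters, as known from human and mouse cells. In human embryonic stem cells, high proteasome activity has been tied to abundant PSMD11.

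Promoter sequence is shown for 7 members that stand for the main patterns below. Psmd8, Psmd11 and Psmd4 are 19S genes that were lower in the libraries labelled DKO, Psmd12 is the 19S gene that was higher, Psmb5 and Psmb6 are catalytic genes of the core that were not called, and Psmg1 holds the only KLF box. The bases come from RefSeq windows on GRCm38.p6 and are printed 5′ to 3′ on the strand of the gene, ending before its first annotated transcribed base. Capitals mark matches to 4 motifs, searched on both strands: the antioxidant response element core TGACNNNGC, the CCAAT box CCAAT, the GC box GGGCGG and the KLF box CCACACCC. No motif contains another, and a match on the opposite strand appears as its reverse complement.
Psmd8, chr7:29180702-29180923, minus strand: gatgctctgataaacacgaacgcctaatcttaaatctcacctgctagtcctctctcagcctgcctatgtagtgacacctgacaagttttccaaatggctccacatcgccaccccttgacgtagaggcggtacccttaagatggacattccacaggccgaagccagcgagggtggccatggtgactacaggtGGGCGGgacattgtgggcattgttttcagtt
Psmd11, chr11:80428365-80428614, plus strand: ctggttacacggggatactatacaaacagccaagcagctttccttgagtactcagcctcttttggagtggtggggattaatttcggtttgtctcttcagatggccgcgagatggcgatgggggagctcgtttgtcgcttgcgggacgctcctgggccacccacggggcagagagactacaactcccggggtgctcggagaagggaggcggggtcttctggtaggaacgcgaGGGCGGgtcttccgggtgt
Psmd4, chr3:95042615-95042864, minus strand: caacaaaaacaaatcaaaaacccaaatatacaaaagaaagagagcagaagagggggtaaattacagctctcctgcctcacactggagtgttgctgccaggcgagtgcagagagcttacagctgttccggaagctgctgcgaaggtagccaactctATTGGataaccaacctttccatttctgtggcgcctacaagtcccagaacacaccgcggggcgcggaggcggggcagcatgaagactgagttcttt
Psmd12, chr11:107479278-107479483, plus strand: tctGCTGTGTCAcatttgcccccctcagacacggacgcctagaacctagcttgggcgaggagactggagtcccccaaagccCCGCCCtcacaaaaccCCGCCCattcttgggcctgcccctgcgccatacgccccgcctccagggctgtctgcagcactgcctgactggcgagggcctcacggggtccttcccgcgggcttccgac
Psmb5, chr14:54618023-54618245, minus strand: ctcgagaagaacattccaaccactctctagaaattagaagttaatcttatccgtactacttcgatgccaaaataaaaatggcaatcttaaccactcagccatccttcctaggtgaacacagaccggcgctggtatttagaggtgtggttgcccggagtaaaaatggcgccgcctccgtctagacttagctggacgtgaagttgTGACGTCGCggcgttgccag
Psmb6, chr11:70525107-70525356, plus strand: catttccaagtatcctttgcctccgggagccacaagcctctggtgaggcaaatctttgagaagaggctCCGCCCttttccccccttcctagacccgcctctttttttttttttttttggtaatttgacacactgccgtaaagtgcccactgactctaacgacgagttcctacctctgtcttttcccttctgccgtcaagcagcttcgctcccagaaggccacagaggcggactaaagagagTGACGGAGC
Psmg1, chr16:95990961-95991210, minus strand: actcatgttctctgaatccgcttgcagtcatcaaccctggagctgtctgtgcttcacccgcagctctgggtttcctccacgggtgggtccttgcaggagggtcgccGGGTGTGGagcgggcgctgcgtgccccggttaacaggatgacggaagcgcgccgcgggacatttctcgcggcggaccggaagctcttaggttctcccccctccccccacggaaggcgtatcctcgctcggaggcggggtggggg
Among the 42 members with a RefSeq window of 300 bases (250 before the start and 50 after it), 6 held the antioxidant response element core (14.3%, against 12.4% of all 32851 windows and 14.9% of the windows of 8959 tested genes), namely Psmb5, Psmb6, Psmc6, Psmd9, Psmd12 and Psme4. The CCAAT box was in 15 (35.7%, against 37.4% of all windows and 39.7% of those of tested genes) and the GC box in 23 (54.8%, against 35.7% of all windows and 67.9% of those of tested genes). The KLF box was in 1 member, 2.4%, against 3.6% of all windows and 3.7% of those of tested genes. Windows were available for 7 of the 10 called-lower 19S genes: none held the antioxidant response element core or the KLF box, 2 held the CCAAT box (Psmc1, Psmd4) and 5 held the GC box (Psmc4, Psmc5, Psmd2, Psmd8, Psmd11). These are matches of letters in a window and say nothing of binding.

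Library totals ran from 6035642 to 6617834 counts in the DKO-labelled group and from 6557408 to 7098530 in WT, which puts 3 counts at 0.423 to 0.497 CPM, the count rescaled by library size. Counts of both knockout targets were higher under the DKO label. Klf2 averaged 615 ± 19 CPM there and 459.6 ± 9.87 CPM in WT, and Klf4 1595 ± 140 and 848 ± 49.1 CPM (SD, n = 5 and 4). This goes against the label, but the deleted part of either gene is not given, and 3' reads outside it check nothing. Every direction below is therefore tied to the label alone. All 8 embryonic stem cell markers were detected, with summed levels of 2592 to 2717 CPM in DKO-labelled libraries and 2044 to 2170 CPM in WT. Of these, 5 rose, with Dppa5a the most abundant (789 ± 68.2 and 404 ± 33.0 CPM), and Tdgf1 (-0.83 on the log2 scale) and Zfp42 (-0.20) fell. Among all genes tested, 23.9% were called higher and 24.0% lower, and the marker list itself was not tested. Sums over 10 fibroblast markers were 1.15 to 3.76 and 2.65 to 4.40 CPM, with Col6a1, Lum and Fap at 0. Sums over 5 trophoblast markers were 4.39 to 8.95 and 6.43 to 10.3 CPM, over 5 primitive endoderm markers 0.785 to 1.94 and 3.97 to 7.48 CPM, and over 3 neural markers 38.5 to 64.3 and 82.1 to 103.5 CPM, each time DKO-labelled first and WT second. The lower neural sum came from Tubb3 (32.9 ± 6.14 and 75.3 ± 8.49 CPM), which lies on chromosome 8 beyond Klf2. Sox1 had 16.8 ± 4.50 and 15.4 ± 1.62 CPM and was not called. It also lies on chromosome 8, but before Klf2, where its 40 tested neighbours had a median log2 fold change of 0.49. Of 6 haematopoietic markers, Laptm5 held nearly all counts (246.6 ± 40 and 211.6 ± 5.18 CPM), Ptprc had 1 count in all and Tyrobp was at 0. The part of these markers in the results below was not tested, and in bulk RNA fewer cells of a type and less RNA per cell cannot be told apart.

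The 19S cap and the 20S core differed in how many of their genes moved. Of the 17 cap subunits that the symbol rule took, 10 fell in the libraries labelled DKO, 1 rose and 6 were not called. Their median log2 fold change was -0.20. Adrm1 and Sem1 are also subunits of the cap, but their symbols fall outside the rule, and they are counted among the partners below. Neither was called, with log2 fold changes of -0.25 for Adrm1 and 0.10 for Sem1 (edgeR adjusted p = 0.1 and 0.103). Of the 14 standard core subunits, 1 rose and 13 were not called, with a median of -0.01. Across all 11893 genes tested, 47.8% were called by edgeR's quasi-likelihood test at a Benjamini-Hochberg adjusted p under 0.05, 24.0% lower and 23.9% higher, and the median log2 fold change was 0.01. Over the whole set 46 of the 50 members passed the filter on low counts; 14 of them were called lower, 5 higher and 27 neither (30.4% lower, 10.9% higher), with a median of -0.09. So the share called in either direction over the whole set, 41.3%, was below that of all genes, while 58.8% of these 17 cap subunits were called lower. No test of this contrast between the groups of genes was made.

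**Figure D1:**
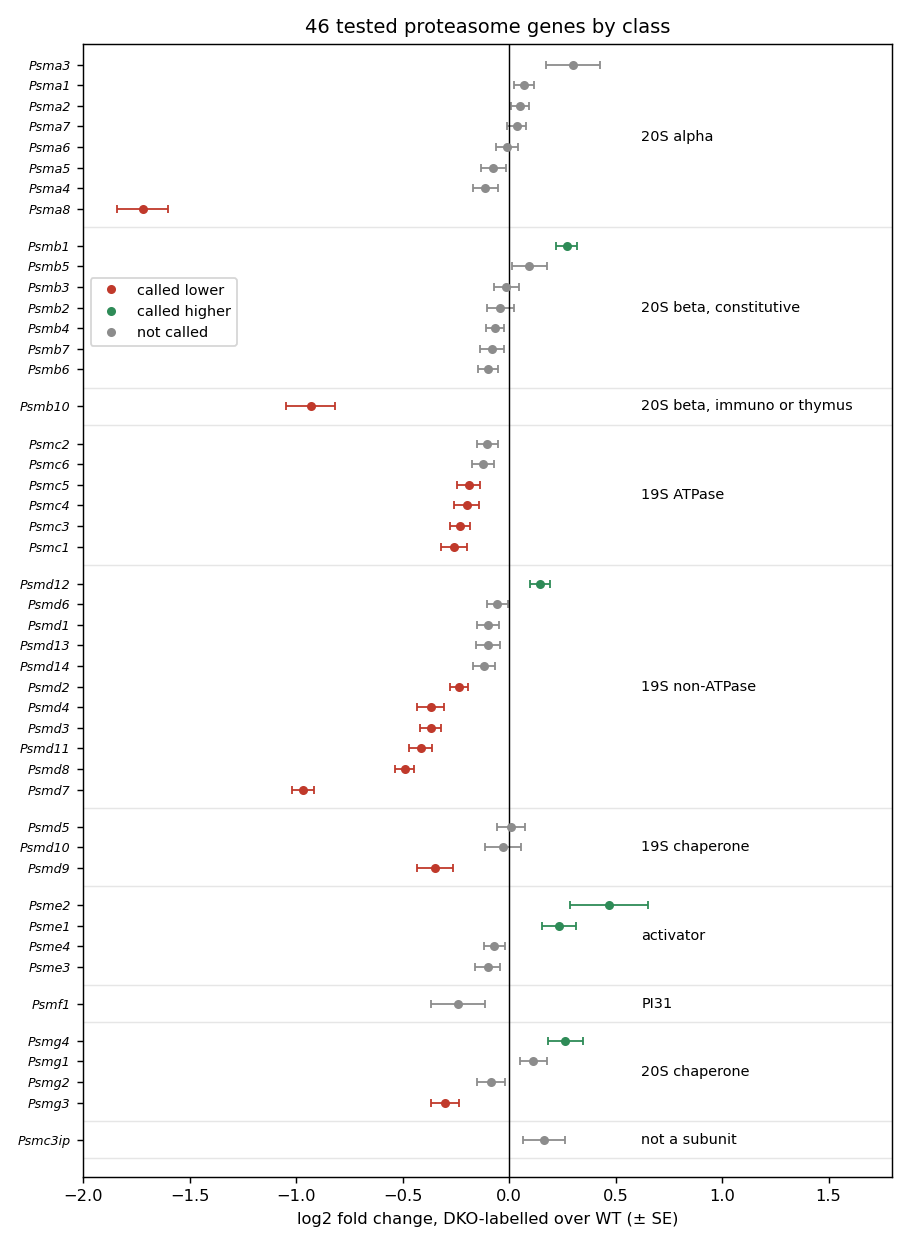
Log2 fold change (DKO-labelled over WT, with SE) of the 46 tested members on the horizontal axis, by class down the page. Points of the 19S ATPases and non-ATPases lie left of 0 for 16 of 17 genes, and those of the 14 standard 20S subunits lie between -0.11 and 0.30; Psma8 is drawn with the alpha subunits.

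Summed over a class, the 17 cap subunits gave 5652, 5947, 6324, 5935 and 5774 CPM in DKO-labelled libraries 1 to 5, against 7313, 7122, 7350 and 7085 CPM in WT libraries 1 to 4. All 5 sums of the first group lay below all 4 of the second. The 14 core subunits gave 4266, 4068, 4277, 4172 and 4267 CPM in the DKO-labelled libraries, against 4227, 4152, 4154 and 4133 CPM in WT, and here the groups overlapped. The cap sum was thus 5926 ± 253 CPM in DKO-labelled libraries and 7218 ± 133 CPM in WT (82.1% of WT), and the core sum 4210.0 ± 90.3 and 4167 ± 41.3 CPM (101.0% of WT; SD, n = 5 and 4). The ratio of the cap sum to the core sum does not depend on the scaling of a library. It was 1.33, 1.46, 1.48, 1.42 and 1.35 in DKO-labelled libraries, against 1.73, 1.72, 1.77 and 1.71 in WT, with means of 1.41 ± 0.0671 and 1.73 ± 0.0258. Without Psmd7, whose chromosomal region is described below, the ratio was 1.34 ± 0.0630 in DKO-labelled libraries and 1.60 ± 0.0261 in WT. The ATPase sum stood at 86.8% of WT and the non-ATPase sum at 80.3%. Because 1 read stands for about 1 transcript end, these CPM levels need no division by gene length, but the genes' use of 3' ends inside and outside the counted exons can differ.

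**Figure D2:**
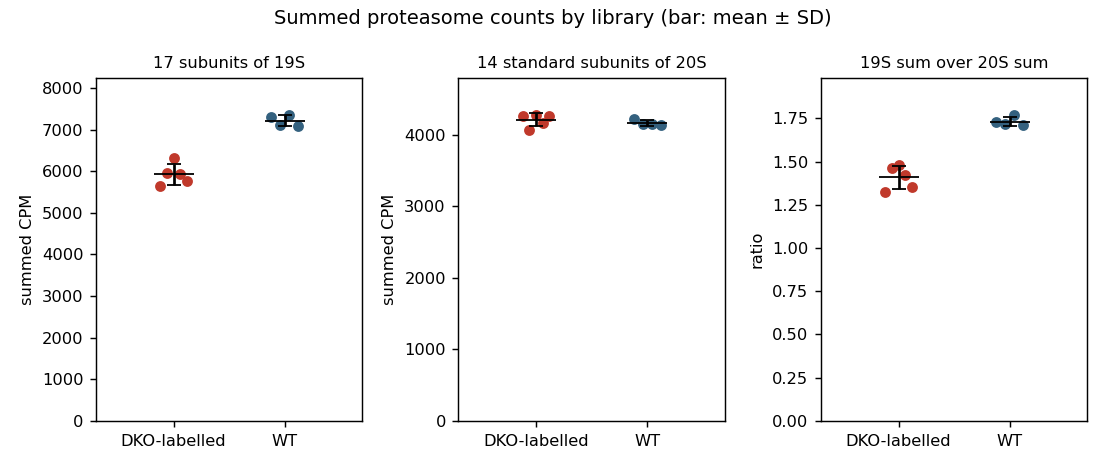
Summed CPM of the 17 subunits of the 19S cap, of the 14 standard subunits of the 20S core, and the ratio of the sums, for each library (points; bars are mean ± SD), DKO-labelled libraries left and WT right. The cap sums of the groups do not overlap, 5652 to 6324 against 7085 to 7350 CPM, while the core sums do.

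Among the non-ATPase subunits of the cap, 6 of 11 fell and 1 rose, with a median log2 fold change of -0.24. The lid subunit with the largest change was Psmd7 (Rpn8), the partner of the lid's deubiquitinase, on chromosome 8 at 107580381 to 107588464, minus strand (mm10). It had 1855, 1755, 1979, 1649 and 1677 counts in DKO-labelled libraries 1 to 5, against 3804, 3533, 3747 and 3956 in WT libraries 1 to 4. Every DKO-labelled library held fewer reads than any WT library. Its level was 283.8 ± 23.7 CPM in DKO-labelled libraries and 555 ± 13.3 CPM in WT. The fitted log2 fold change was -0.97 ± 0.05 (SE) with an edgeR adjusted p = 2.2e-17. Psmd8 (Rpn12), another lid subunit, on chromosome 7 at 29174188 to 29180701, had 3283, 3082, 3188, 2830 and 2987 counts in DKO-labelled libraries, against 4669, 4562, 4741 and 4617 in WT. The groups stood far apart relative to their spread. Psmd8 averaged 488.8 ± 20.9 CPM in DKO-labelled libraries and 686.6 ± 20.6 CPM in WT, a log2 fold change of -0.49 ± 0.04 (adjusted p = 2.56e-11).

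Psmd11 (Rpn6), a lid subunit that clamps the cap onto the core, lies on chromosome 11 at 80428615 to 80473248. It had 1123, 1023, 988, 857 and 951 counts in DKO-labelled libraries, against 1392, 1461, 1396 and 1418 in WT. All DKO-labelled values were below the lowest WT value, and the log2 fold change was -0.42 ± 0.05 (adjusted p = 6.66e-08). The end of its transcript has near-identical copies in A730017L22Rik and Gm14048, which held 26 counts in the DKO-labelled libraries and 19 in WT. Psmd3 (Rpn3), also of the lid, had 3509, 3777, 3841, 3573 and 3630 counts in DKO-labelled libraries, against 5047, 4675, 5498 and 5216 in WT. Its log2 fold change was -0.37 ± 0.05 (adjusted p = 1.17e-07), again with no overlap. An exon of Gm12356 lies opposite Psmd3, and the strand setting of the counting is not given, so their reads may not be separate.

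Psmd4 (Rpn10) is a ubiquitin receptor. It had 2749, 3350, 3307, 3145 and 3157 counts in DKO-labelled libraries, against 4461, 3880, 4481 and 4710 in WT, a log2 fold change of -0.37 ± 0.06 (adjusted p = 6.97e-05). DKO-labelled library 1 and WT library 2 were each the lowest of their group, and the groups did not overlap. Psmd2 (Rpn1), a scaffold of the base and the most abundant cap transcript, had 4835, 4781, 4572, 4367 and 4622 counts in DKO-labelled libraries, against 5826, 5716, 5853 and 6124 in WT. The replicates of Psmd2 were tight, at 737 ± 12.7 and 868 ± 5.57 CPM, and its log2 fold change was -0.24 ± 0.04 (adjusted p = 1.09e-05). The near copy of its end in the pseudogene Gm5422 held 51 counts in DKO-labelled libraries and 72 in WT. Psmd12 (Rpn5), a lid subunit, was the exception among cap genes: it rose, with a log2 fold change of 0.15 ± 0.05 (adjusted p = 0.0111), at 240.7 ± 5.38 CPM in DKO-labelled libraries and 217.6 ± 3.35 CPM in WT. The non-ATPase subunits that were not called were Psmd14, the deubiquitinase (-0.12), Psmd13 (-0.10), Psmd1 (-0.10) and Psmd6 (-0.06). Split by position, the lid genes that the symbol rule took were 4 of 8 lower and 1 higher (median -0.24). The base genes that it took were 5 of 8 lower and none higher (median -0.19). Among all genes tested, 24.0% were called lower and 23.9% higher, and lid and base were not compared by a test. None of the base genes was higher at an unadjusted p under 0.05, by edgeR or DESeq2.

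Of the 6 ATPases, which form the unfolding ring of the base, 4 fell and 2 were not called, and all 6 values lay below 0. Psmc1 (Rpt2), the most abundant of them, had 3284, 3568, 3853, 3333 and 3249 counts in DKO-labelled libraries, against 4426, 4061, 4963 and 4429 in WT. In CPM the highest DKO-labelled library reached the WT range. The log2 fold change was -0.26 ± 0.06 (adjusted p = 0.00137). Psmc3 (Rpt5) had 2672, 2604, 2646, 2472 and 2506 counts in DKO-labelled libraries, against 3255, 3127, 3483 and 3174 in WT, with no overlap (log2 fold change -0.23 ± 0.05, adjusted p = 0.000112). Exons of Slc39a13 lie opposite its end, and that gene held 283 counts in DKO-labelled libraries and 178 in WT. Psmc4 (-0.20) and Psmc5 (-0.19) were also called lower, while Psmc6 (-0.12) and Psmc2 (-0.10) missed the threshold with adjusted p of 0.0559 and 0.0823.

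**Figure D3:**
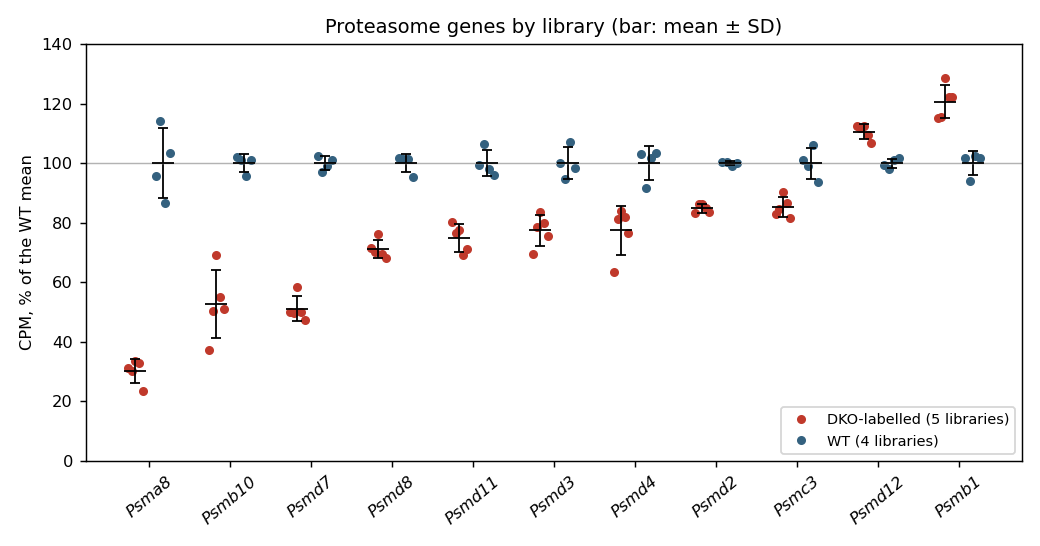
CPM of 11 members in each library as a percent of the gene's WT mean (points; bars are mean ± SD), with the 5 DKO-labelled libraries left of the 4 WT libraries for each gene. The 11 were picked from the called members, and their groups do not overlap. Psma8 to Psmc3 are lower in the DKO-labelled libraries, and Psmd12 and Psmb1, the last on the right, are higher. Called members whose groups overlap (Psmc1, Psmc5, Psme1, Psme2 and Psmg4) are not drawn, so the lack of overlap follows from this choice. Psmc4, Psmd9 and Psmg3, which were called lower without overlap, are not drawn either. The share of all tested genes without overlap was not computed.

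The core's standard subunits changed little. Of the 7 alpha subunits, none was called by edgeR or DESeq2, and at an unadjusted p under 0.05 edgeR and DESeq2 each gave only Psma3, in the higher direction. Psma2, the most abundant alpha transcript, had 6587, 5919, 5794, 5398 and 6340 counts in DKO-labelled libraries, against 6200, 6061, 6257 and 6437 in WT. The groups overlapped, and the log2 fold change was 0.05 ± 0.04. The others were Psma1 (0.07), Psma3 (0.30, adjusted p = 0.0531), Psma4 (-0.11), Psma5 (-0.08), Psma6 (-0.01) and Psma7 (0.04). The ends of Psma3, Psma4 and Psma5 have near copies in pseudogenes, so their counts are less certain. Of the 7 constitutive beta subunits, Psmb1 rose. Psmb1 had 2121, 2033, 2158, 1995 and 2143 counts in DKO-labelled libraries, against 1876, 1700, 1924 and 1973 in WT. All DKO-labelled libraries exceeded all WT libraries, at 332.6 ± 15.3 and 275.7 ± 11 CPM (log2 fold change 0.27 ± 0.05, edgeR adjusted p = 1.96e-05).

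The most abundant beta transcript, Psmb4, had 3584, 3150, 3197, 2909 and 3241 counts in DKO-labelled libraries, against 3660, 3547, 3576 and 3712 in WT, and in CPM the groups overlapped (log2 fold change -0.07 ± 0.04, adjusted p = 0.215). The catalytic genes Psmb5 (0.09), Psmb6 (-0.10) and Psmb7 (-0.08) were not called, nor were Psmb2 (-0.04) and Psmb3 (-0.01). The ends of Psmb3 and Psmb5 also have near copies in pseudogenes. That of Psmb5 in Gm3375 held 262 counts in DKO-labelled libraries and 216 in WT. The end of Psmb7 matches Nek6, which has an exon opposite it and held 311 counts in DKO-labelled libraries and 385 in WT. The Psmb7 counts, used in a share below, are therefore less certain too. No constitutive beta subunit was called lower by edgeR or DESeq2, and Psmb6 alone was lower at an unadjusted p under 0.05 with either tool. The SE of the log2 fold change ran from 0.04 for Psma2 to 0.13 for Psma3, so smaller differences of single core genes may not have been detectable.

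Of the alternative subunits of the core, Psma8 and Psmb10 were called lower, and Psmb8, Psmb9 and Psmb11 failed the filter on low counts. Psmb10 lies on chromosome 8, in a region described below. Psma8, an alpha subunit of the testis proteasome that takes the place of Psma7, lies on chromosome 18 and showed the largest change of any member. It had 68, 63, 67, 64 and 49 counts in DKO-labelled libraries, against 209, 245, 193 and 238 in WT. The groups were widely separated, at 9.91 ± 1.32 and 32.7 ± 3.82 CPM, a log2 fold change of -1.72 ± 0.12 (adjusted p = 3.12e-14). Its share of the summed Psma8 and Psma7 counts was 1.64%, 1.58%, 1.60%, 1.65% and 1.23% in DKO-labelled libraries, against 4.84%, 5.57%, 4.37% and 5.31% in WT. The exact 95% binomial interval, which covers counting error only, was 0.91% to 1.62% for the lowest DKO-labelled library and 3.79% to 5.02% for the lowest WT library. Psma7 itself, at 633 ± 27.8 CPM in DKO-labelled libraries and 618 ± 12.3 CPM in WT, was not called.

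Psmb10 (Mecl1), the immunosubunit that replaces Psmb7, had 81, 105, 137, 106 and 106 counts in DKO-labelled libraries, against 222, 216, 212 and 232 in WT. All DKO-labelled libraries were lower than all WT libraries, at 17.1 ± 3.71 and 32.6 ± 0.950 CPM (log2 fold change -0.93 ± 0.12, adjusted p = 3.5e-08). Its share of Psmb10 and Psmb7 counts was 6.72%, 9.11%, 10.7%, 9.65% and 8.84% in DKO-labelled libraries, against 15.9%, 15.4%, 13.5% and 16.1% in WT, with means of 8.99% ± 1.45 and 15.2% ± 1.22 (SD, n = 5 and 4). The other immunosubunits were near the limit of detection. Psmb9 (Lmp2), the replacement for Psmb6, had 6, 4, 4, 5 and 7 counts in DKO-labelled libraries, against 6, 5, 14 and 12 in WT. The groups overlapped, and its share of Psmb9 and Psmb6 counts was 0.194% ± 0.0406 in DKO-labelled libraries and 0.299% ± 0.139 in WT. An exon of Tap1 lies opposite Psmb9, so their reads may not be separate. Tap1 held 57 counts in DKO-labelled libraries and 19 in WT. Psmb8 (Lmp7), the replacement for Psmb5, had 0, 0, 0, 0 and 1 counts in DKO-labelled libraries, against 1, 0, 1 and 0 in WT. In DKO-labelled library 3, which had the fewest Psmb5 counts, a count of 0 allowed a Psmb8 share of up to 0.414% by the floor of 3 counts and 0.508% by the exact interval. The thymus subunit Psmb11 had 4 counts in all. Psmb8, Psmb9 and Psmb11 failed the filter on low counts and were not in the main test.

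**Figure D4:**
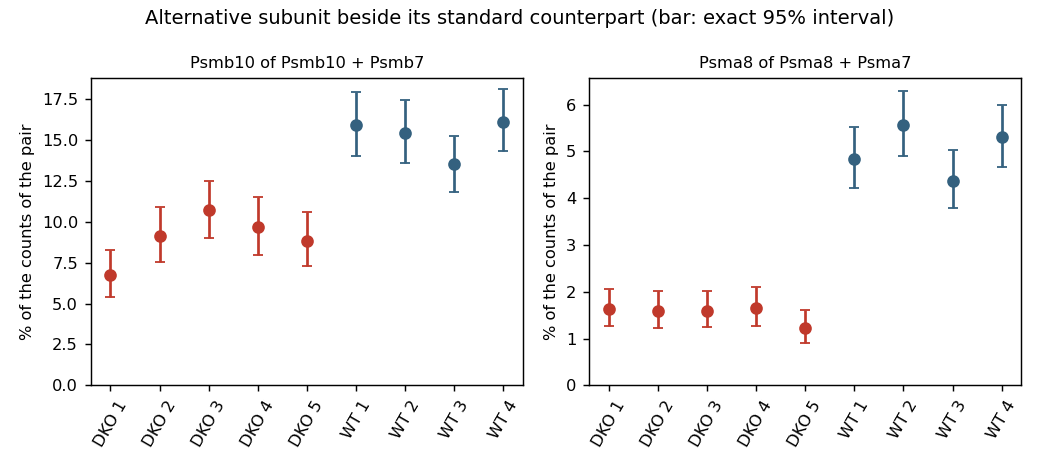
Share (%) of Psmb10 in Psmb10 plus Psmb7 counts and of Psma8 in Psma8 plus Psma7 counts, per library, DKO-labelled left and WT right, with exact 95% binomial intervals for counting error. The Psmb10 shares are 6.72% to 10.7% against 13.5% to 16.1%, and the Psma8 shares 1.23% to 1.65% against 4.37% to 5.57%.

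Psmd7 and Psmb10 both lie on chromosome 8, on the side of Klf2 (72319033) farther from the chromosome's start, where lower counts were general. Among the 359 tested genes beyond Klf2, 76.0% were called lower and the median log2 fold change was -0.60, whereas the 304 genes before Klf2 had a median of 0.42. Off chromosomes 6, 8, X, Y and M, the median of 10248 genes was 0.01. The 20 tested genes on each side of Psmd7 had a median of -0.63, and those around Psmb10 -0.58, so both members moved in the direction of their neighbours and further than the median neighbour. The 40 neighbours of Psma8 had a median of 0.15, opposite in sign to the gene. For the other called 19S genes the neighbours' median ran from -0.16 around Psmd3 to 0.09 around Psmd11, with -0.11 around Psmc3 and -0.01 around Psmd8. No member lies on chromosome 6. How far the genotype label and the state of the chromosome 8 region each set the values of Psmd7 and Psmb10 cannot be told apart. Without Psmd7, 9 of the 16 cap subunits were still called lower, with a median of -0.19.

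**Figure D5:**
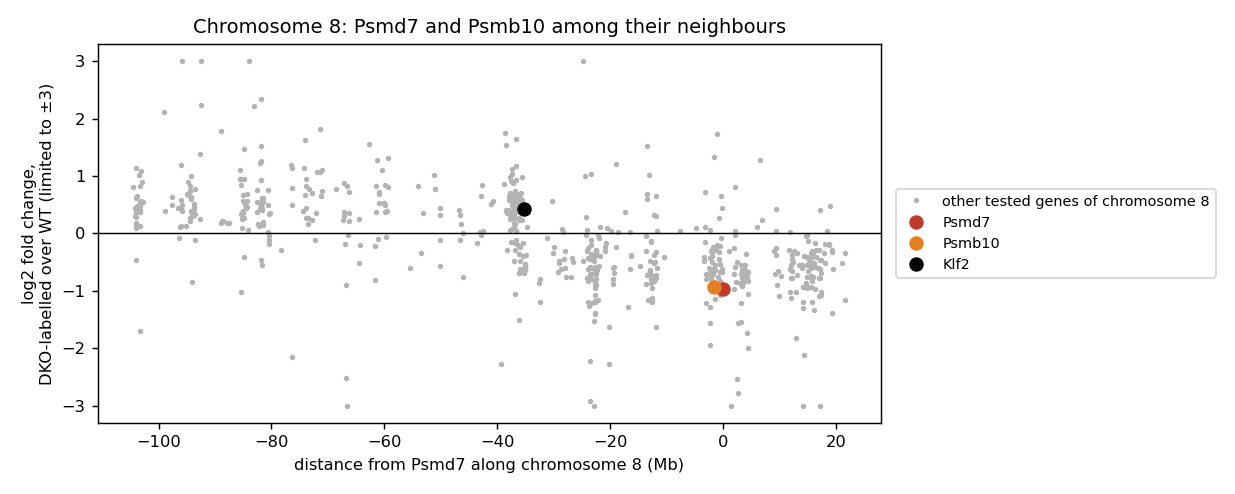
Log2 fold change (DKO-labelled over WT) of tested genes on chromosome 8 against distance from Psmd7 in Mb, with values limited to 3 either way. Psmd7 and Psmb10, at -0.97 and -0.93, lie among genes beyond Klf2 with a median of -0.60; genes before Klf2 have a median of 0.42.

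Of the activators, which open the core in place of the cap, Psme1 and Psme2 were called higher, and Psme3 and Psme4 were not called. Psme1 (PA28 alpha) had 457, 459, 389, 465 and 438 counts in DKO-labelled libraries, against 429, 339, 363 and 488 in WT, with overlap (log2 fold change 0.24 ± 0.08, edgeR adjusted p = 0.0156). Psme2 (PA28 beta), its partner, had 86, 81, 40, 52 and 56 counts in DKO-labelled libraries, against 52, 45, 57 and 41 in WT, and only DKO-labelled libraries 1, 2, 4 and 5 were above every WT library in CPM (log2 fold change 0.47 ± 0.19, adjusted p = 0.0358). Neither call was stable: Psme1 lost it without DKO replicate 4, WT replicate 2 or WT replicate 3 (adjusted p = 0.054, 0.104 and 0.085), and Psme2 lost it by DESeq2 and without DKO replicate 1 or 2 or WT replicate 2 or 4. Psme2b, a near copy of Psme2, had 12 counts in DKO-labelled libraries and 3 in WT and was not tested. The end of Psme1 has a near copy in Gm7776, with 24 counts in DKO-labelled libraries and 5 in WT, and lies opposite Emc9.

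Psme3 (PA28 gamma), the nuclear activator, had 648, 595, 609, 603 and 640 counts in DKO-labelled libraries, against 683, 691, 755 and 731 in WT. The groups did not overlap, but the difference was not called (log2 fold change -0.10 ± 0.06, adjusted p = 0.152). Psme4 (PA200) was the most abundant activator, with 2732, 2718, 2871, 2598 and 2805 counts in DKO-labelled libraries, against 3247, 2764, 3247 and 3156 in WT. It averaged 436.9 ± 23.0 and 458.1 ± 29.2 CPM and was not called (log2 fold change -0.07 ± 0.05, adjusted p = 0.263). Psmf1 (PI31), a protein that binds and can inhibit the core, had 118, 77, 110, 90 and 118 counts in DKO-labelled libraries, against 122, 111, 147 and 142 in WT. The groups overlapped, and it was not called (log2 fold change -0.24 ± 0.13, adjusted p = 0.118).

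The assembly chaperones were split. Of the 3 that build the 19S base, Psmd9 fell, with 207, 235, 213, 201 and 224 counts in DKO-labelled libraries, against 303, 261, 299 and 322 in WT (log2 fold change -0.35 ± 0.08, adjusted p = 0.000706). The groups did not overlap, and an exon of Gm26745 lies opposite the gene. Psmd5, the most abundant of the 3, had 531, 590, 496, 520 and 562 counts in DKO-labelled libraries, against 516, 595, 560 and 642 in WT, a log2 fold change of 0.01. Psmd10 (gankyrin) stood at -0.03. Of the 4 that build the core, Psmg3 fell and Psmg4, its partner in the complex that orders the alpha ring, was called higher.

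Psmg3 had 532, 598, 557, 456 and 528 counts in DKO-labelled libraries, against 650, 727, 760 and 695 in WT, with no overlap in CPM (log2 fold change -0.30 ± 0.07, adjusted p = 0.000327). Gm26938 overlaps it on the same strand. Psmg4 had a log2 fold change of 0.26 (adjusted p = 0.0099), with overlapping groups, and lost its call without WT replicate 3 (adjusted p = 0.0559). Psmg1, the most abundant chaperone of the core over all libraries though not in WT alone, had 632, 627, 660, 623 and 585 counts in DKO-labelled libraries, against 662, 583, 589 and 659 in WT (log2 fold change 0.11, not called), and Psmg2 stood at -0.09. Psmc3ip, no subunit, had 221, 170, 197, 199 and 178 counts in DKO-labelled libraries, against 185, 155, 210 and 192 in WT, and was not called (log2 fold change 0.17 ± 0.10).

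Genes that work with the proteasome were taken as 4 lists. Of 22 partners (receptors, shuttles, assembly and nuclear import factors), 3 fell and 1 rose, with a median log2 fold change of 0.00. This list includes the cap subunits Adrm1 and Sem1. That is 18.2% called, against 47.8% of all genes. Those that fell included the shuttle receptor Ubqln1 (-0.34, adjusted p = 5.91e-07) and the protease Ddi2 (-0.30, adjusted p = 0.000185), while Zfand5 rose (0.24, adjusted p = 0.0207). Pomp, the core's maturation factor (-0.07), and Rad23b (-0.10) were not called. Of 22 tested regulators of proteasome transcription, 6 rose and 4 fell, with a median of 0.03, and the share called, 45.5%, was near the 47.8% of all genes. Nfe2l1, the factor for proteasome recovery, averaged 142.9 ± 8.69 CPM in DKO-labelled libraries and 174.4 ± 2.69 CPM in WT (log2 fold change -0.29 ± 0.05, adjusted p = 3.25e-05), and Ddi2, which cleaves Nfe2l1, fell too. Ddi2 is on both lists. The 40 tested neighbours of Nfe2l1 had a median log2 fold change of -0.24, and those of Ddi2 -0.26, close to the values of the genes themselves. Nfe2l2 (Nrf2), the factor of the oxidative response, averaged 128.1 ± 7.45 CPM in DKO-labelled libraries and 85.8 ± 5.24 CPM in WT (0.58 ± 0.06, adjusted p = 9.09e-10). Foxo1 fell (-0.52) and its relative Foxo3 rose (0.21). Bach1, a repressor at antioxidant response elements, rose (0.44), as did the ubiquitin ligase subunit Fbxw7 (0.32) and Mafg (0.20). The AAA ATPase Vcp (-0.10) and Stat3 (0.01) were not called.

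Of 16 genes for ubiquitin and its attachment, 5 rose and 1 fell, with a median of 0.06, and the share called, 37.5%, was below the 47.8% of all genes. The conjugating enzyme Ube2d3 (0.26, adjusted p = 7.6e-06), the activating enzyme Uba1 (0.21) and the chain-cleaving enzyme Usp5 (0.20) rose, and Nploc4, the cofactor of Vcp, fell (-0.26). Of 13 tested genes of antigen presentation and interferon signalling, 5 fell and 2 rose, with a median of 0.06, and 53.8% were called, against 47.8% of all genes. The class I genes H2-D1 (-2.12, adjusted p = 1.59e-14), H2-K1 (-1.95) and B2m (-1.81) fell, and so did Jak1 (-0.30), while Irf1 (0.40) and Irf9 (0.30) rose. Nlrc5, the transactivator of class I genes, had 3 counts in all and was not tested.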

How the data were processed

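Per the labels' protocols, RNA was extracted with Trizol and made into 3' end libraries. Counts of reads in exons, raw and in whole numbers, were deposited by the authors for each gene. The build mm10 and the tools cutadapt, STAR, featureCounts and DESeq2 are named, with no roles, per the submitters' processing notes. The sources used here do not give the annotation, the strand setting or the treatment of reads with several matches. Symbols came from GENCODE mouse release 21 by identifier (52403 of 52550 rows, 147 unmatched), and all sample columns were used. Genes passing edgeR's filterByExpr were scaled by TMM and tested on all 9 libraries with genotype as the only term, by the robust quasi-likelihood test of edgeR 4.0.16 in R 4.3.3. P-values were adjusted by Benjamini-Hochberg over 11893 genes, with 0.05 as the threshold. The SE of a log2 fold change was taken from its F statistic. CPM is scaled by TMM. DESeq2 1.42.0, other scalings and filters, and leaving out each library were alternatives. Library pairs within a group differed by more than sampling noise (chi-square per degree of freedom 2.31 to 5.40). A near copy is a match of at least 95% identity over 100 bases to the last 300 bases of a transcript. Motifs were searched by exact letters.

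Members and lists were chosen with earlier results of these data known. Counts in every library are printed for the immunosubunits, activators and Psmf1, the 10 called members with the largest change, the most abundant and most strongly called member of each class, and called members on chromosomes 6 and 8; other members are given by value. Of each other list, the 6 most strongly called genes at most, and no more than 2 abundant uncalled ones, are named. The Psma8 share, the division into lid and base, and the naming of Adrm1, Sem1, Foxo3, Bach1 and single marker genes were added after the values were seen. Some genes that this rule or the lists took are not reported here.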

Additional observations from a re-analysis of the deposited data

Results flagged for a closer look

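Dixon's criterion at 95% marked 11 of 116 groups of replicates in which 1 library stood apart from the others, where chance alone would mark about 1 in 20 (5.8 groups). In DKO-labelled libraries, Psmd7 was 324.8 CPM in library 3 (263.4 to 278.3 in the others), Psmc5 was 293.3 CPM in library 3 (249.6 to 260.9) and Psmb6 was 390.5 CPM in library 2 (424.3 to 437.7). In WT library 3, Psma3 was 17.5 CPM (15.1 to 15.3 in the others), Psmb10 31.2 CPM (32.9 to 33.2), Psmd14 230.7 CPM (260.8 to 264.2) and Psmd2 859.9 CPM (869.7 to 871.6). In WT library 2, Psmb1 was 259.2 CPM (280.2 to 282.7), Psmd4 591.6 CPM (658.3 to 668.9) and Klf4 775.3 CPM (862.9 to 878.1). In WT library 4, Psmd8 was 655.7 CPM (695.6 to 698.4). The values of Psmd7, Psmb10, Psmd2, Psmb1, Psmd4, Psmd8 and Klf4 set apart in this way stayed on their own group's side of the other group.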

How the results depend on the processing

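Of the 19 called members, 16 kept their call in all 17 alternative settings; Psme1, Psme2 and Psmg4 did not. No called member changed sign. Of the uncalled, 7 gained a call in at least 1 setting (Psma3, Psma4, Psmb6, Psmc6, Psmd1, Psmd13 and Psmd14). Leaving out 1 library at a time gave 14 to 17 members called lower and 3 to 6 higher, 10 to 12 cap subunits lower, 0 to 1 core subunits lower and 1 to 2 core subunits higher. The core subunits called higher were 2 with library totals only and 2 with the replicate block, where Psma3 joined Psmb1; the called-lower core gene was Psma4 without DKO replicate 3 and Psmb6 without WT replicate 4. Without WT replicate 2, 3 members were called higher. Whether the replicate numbers pair the libraries was not tested. Correlations of same-numbered deviations were 0.086, 0, 0.088 and 0.039, with 3 of 4 correlating best with their own number. The replicate block, fitted without DKO 5, called 15 members lower and 6 higher. Psmb8, Psmb9, Psmb11 and Psme2b were left out by the filter on low counts. With no filter none of them was called by edgeR (adjusted p = 0.681, 0.295, 0.606 and 0.263) or at an unadjusted p under 0.05 by edgeR or DESeq2.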
